A study of Mus musculus with 12 samples.

Results

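The prolactin receptor, STAT5 and Elf5 axis is described here through the binding of ERα, the estrogen receptor, and of PR, the receptor for progesterone, near 7 genes: Prlr, Jak2, Stat5a, Stat5b, Elf5, Socs2 and Cish. A ChIP-seq peak belonged to a gene when its summit, the base of strongest signal, lay within 50 kb of the gene's span on the mouse assembly mm10. This linked 877 of the 741142 peaks in 8 deposited lists, or 323 of the 321963 regions left after overlapping peaks of all lists were merged, for 7 of 21883 coding genes. Both receptors were precipitated from chromatin of whole mammary glands of mice raised to 8 weeks of age, implanted with estradiol (E2) and progesterone (P4) and taken 4 days later. The mice carried either wild-type Esr1 (WT) or the Y541S form of Esr1, the ERα gene, whose changed residue lies in the hormone-binding domain, and all groups received both hormones, so no untreated gland was compared. Each receptor and genotype had 2 biological replicates, and the number of animals behind each is not given. The D542G samples were not analysed here.

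Prolactin binds its receptor Prlr, which activates the kinase Jak2. Jak2 phosphorylates the transcription factors STAT5A and STAT5B, which drive alveolar differentiation and milk protein genes together with the ETS factor Elf5. Socs2 and Cish are induced by STAT5 and dampen cytokine receptor signaling, closing a feedback loop. Estrogen and progesterone act in hormone-sensing luminal cells, and progesterone prepares the gland for prolactin in pregnancy.

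RefSeq promoter sequences (GRCm38.p6, the assembly equivalent to mm10) were at hand for 6 of the 7 genes. The Cish promoter is shown because it had a peak of both receptors in all 8 lists and carries paired STAT5 motifs. One promoter each of Stat5a and Stat5b is shown because ERα peaks touched both in all 4 ERα lists and their sequences are alike. Each runs 5′ to 3′ along the gene, from 250 bases before the listed transcription start to 20 bases from it, with the motif matches in capitals.
Cish, chr9:107296409-107296678, plus strand: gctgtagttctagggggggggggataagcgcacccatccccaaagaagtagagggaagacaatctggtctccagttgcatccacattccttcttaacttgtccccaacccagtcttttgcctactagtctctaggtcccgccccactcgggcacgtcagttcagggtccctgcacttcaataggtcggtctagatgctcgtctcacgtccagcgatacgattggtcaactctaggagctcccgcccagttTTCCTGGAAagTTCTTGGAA
Stat5a, chr11:100860234-100860503, plus strand: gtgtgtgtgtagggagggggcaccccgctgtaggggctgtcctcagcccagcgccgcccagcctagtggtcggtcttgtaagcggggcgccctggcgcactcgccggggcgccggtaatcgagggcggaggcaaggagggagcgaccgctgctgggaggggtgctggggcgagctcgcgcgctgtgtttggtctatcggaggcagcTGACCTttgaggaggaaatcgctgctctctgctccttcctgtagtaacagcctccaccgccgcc
Stat5b, chr11:100822551-100822820, minus strand: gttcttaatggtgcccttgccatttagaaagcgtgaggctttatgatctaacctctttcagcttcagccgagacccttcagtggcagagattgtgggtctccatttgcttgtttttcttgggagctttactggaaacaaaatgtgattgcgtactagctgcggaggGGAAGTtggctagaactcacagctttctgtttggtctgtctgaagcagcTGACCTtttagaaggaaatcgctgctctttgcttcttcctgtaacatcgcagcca

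The capitals in Cish mark the STAT5 motif TTCNNNGAA, searched on both strands, as TTCCTGGAA at the start itself and TTCTTGGAA 11 bases further. Of 32851 RefSeq promoter windows of 300 bases, 8.30% held at least 1 match and 0.457% held 2 or more. In the Stat5a and Stat5b windows the capitals mark TGACCT, the reverse complement of the estrogen response element core AGGTCA, at 44 and 35 bases before the start. That hexamer occurred on either strand in 16.3% of promoters. Over the hexamer and 20 bases on each side, 41 of 46 bases were identical between Stat5a and Stat5b (89.1%). This pair was chosen for its likeness. At the other listed Stat5a promoter, where the hexamer reads AGGTCA along the gene, 7 of 46 bases matched Stat5b (15.2%). The Stat5b window also held GGAAGT, an ETS motif, 84 bases before the start, which 23.8% of promoters held on either strand. No full palindromic estrogen response element (in 0.0700% of promoters) and no progesterone response element (in 0.475%) lay in the windows of the 6 genes. A match is a run of letters, not a measured binding site.

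The lists held 64488 to 106926 ERα peaks and 82982 to 113695 PR peaks per library, and every peak had a −log10 p of at least 2. Y541S lists were longer than WT lists, 1.55-fold for ERα and 1.22-fold for PR. Peak lists carry no read totals, so sequencing depth is unknown, and peaks do not measure expression, so the tissue could not be checked by its markers. The labels give whole glands, although the series title names luminal cells. Whether more cells with a bound site or stronger binding per cell lengthened a list cannot be told apart.

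Near the 7 genes together, the 4 ERα lists held 85, 85, 120 and 104 peaks, in the order WT replicate 1, WT replicate 2, Y541S replicate 1 and Y541S replicate 2, which is kept below. The PR lists held 106, 112, 141 and 124 peaks in the same order. Both Y541S libraries were above both WT libraries for each receptor. The Y541S to WT ratio was 1.31 for ERα (log2 0.39) and 1.21 for PR (log2 0.28). Per 10000 peaks of the list, ERα peaks near the axis numbered 11.7, 13.2, 11.2 and 9.85, a ratio of 0.846, and PR peaks 12.8, 12.0, 12.4 and 12.2, a ratio of 0.996. The rise in number was therefore smaller than the growth of the whole list for ERα, and close to it for PR. PR peaks outnumbered ERα peaks 1.23-fold (1.28 in WT and 1.18 in Y541S), beside 1.14-fold over whole lists.

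The 7 genes had many linked peaks for single genes, with medians over the genes of 15 ERα and 20 PR peaks, against 8 and 8.5 over all coding genes. Just inside the limit, at 40 to 50 kb from a gene, the lists held 15 to 19 peaks, and just outside, at 50 to 60 kb, 9 to 16. Longer genes have wider windows, and the spans run from 6.13 kb in Cish to 172 kb in Prlr. Per 100 kb of window, ERα peaks ran from 5.52 at Prlr to 13.7 at Cish, and PR peaks from 8.37 at Prlr to 15.0 at Socs2. The medians over all coding genes were 5.88 and 6.33, so Prlr was below the ERα median. Peaks shared by Stat5a and Stat5b count for both genes. Groups were called different for a gene when both values of one genotype lay above both of the other. With 2 libraries against 2, an exact permutation test (two-sided) cannot give a p below 0.333, and no coding gene reached an adjusted p below 0.798 for ERα or 1 for PR.

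**Figure D1:**
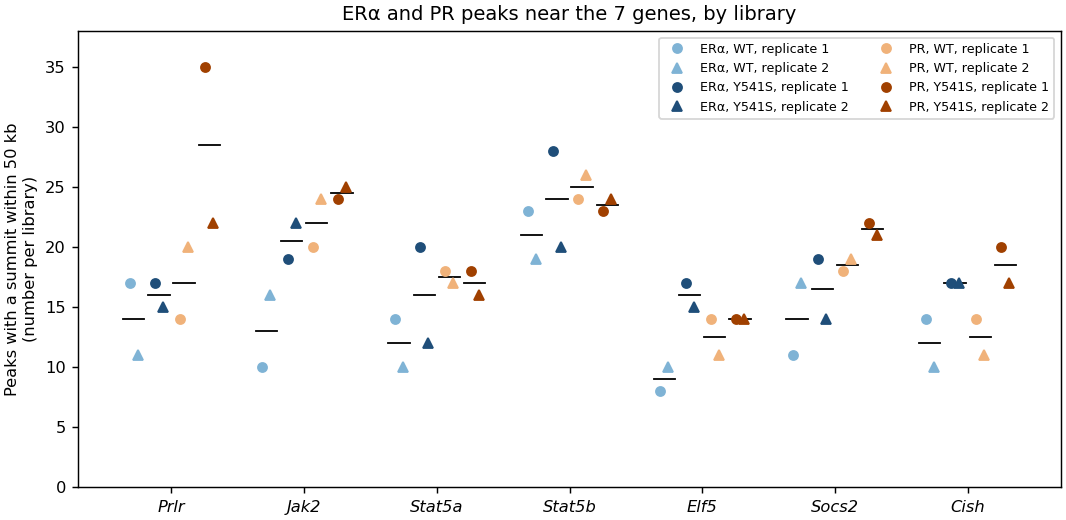
Number of peaks with a summit within 50 kb of each gene (y axis) for the 7 genes (x axis). Circles are replicate 1, triangles replicate 2, and black lines group means. Prlr reaches 35 PR peaks in Y541S replicate 1, and Jak2, Elf5 and Cish have both Y541S ERα libraries above both WT libraries.

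For ERα, 3 of the 7 genes had more peaks in both Y541S libraries than in both WT libraries, Jak2, Elf5 and Cish, and none had fewer. Over all coding genes the shares were 40.8% higher and 0.951% lower, so 3 of 7 was near the background. Elf5 had 8, 10, 17 and 15 ERα peaks, a mean of 9 ± 1.41 in WT and 16 ± 1.41 in Y541S (SD, n = 2 each, exact permutation p = 0.333). Jak2 had 10, 16, 19 and 22, and Cish 14, 10, 17 and 17. Per 10000 peaks no gene was called higher (background 13.9%), and Prlr and Stat5b were called lower (background 26%). The calls of Jak2, Elf5 and Cish thus ended when list length was divided out. In lists cut to their 20000 strongest peaks, Elf5 (difference 1), Stat5a (2.5) and Stat5b (3) were called higher, and Jak2 and Cish were not. With −log10 p of at least 5, Jak2 (3), Elf5 (2.5), Cish (5.5) and Stat5b (2) were called higher. The share of all coding genes called was not computed for these 2 settings, so the ERα calls depend on the measure.

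For PR, the genes with more peaks in both Y541S libraries were Prlr, Socs2 and Cish, again 3 of 7, beside 24.5% of all genes higher and 3.15% lower. Prlr, the receptor gene itself, had 14, 20, 35 and 22 PR peaks, a Y541S minus WT difference of 11.5 (exact permutation p = 0.333). Y541S replicate 1 carried most of that difference, which was 5 without it. Socs2 had 18, 19, 22 and 21, and Cish 14, 11, 20 and 17. Per 10000 peaks Prlr stayed higher (background 12.8%), while Stat5a and Stat5b were called lower (background 19.7%). The Prlr call did not hold among stronger peaks: with −log10 p of at least 5 the difference was 9 and the genotypes overlapped, and in lists cut to their 20000 strongest peaks it was -2, with both Y541S libraries below both WT libraries.

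Between receptors, no gene had all 4 PR values above all 4 ERα values, or the reverse, beside 4.29% and 0.809% of all genes. The scaled numbers gave no call either, beside 4.94% and 4.17%. Jak2 came near, with ERα values of 10, 16, 19 and 22 and PR values of 20, 24, 24 and 25, as did Socs2 with 11, 17, 19 and 14 for ERα and 18, 19, 22 and 21 for PR. In an exact permutation of receptor within genotype (two-sided), both had p = 0.0556, the smallest that 36 arrangements can give, and an adjusted p over all genes of 0.488. The PR peaks exceeded the ERα peaks by 6.5 on average at Jak2 and by 4.75 at Socs2.

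Regions were next classed by the lists that held them. Near the 7 genes, 218 merged ERα regions included 32 with a peak in all 4 lists (14.7%, background 8.92%), 11 held by the pair of Y541S lists and by neither WT list (5.05%, background 4.48%) and 2 in both WT and no Y541S list (0.917%, background 0.63%). The 221 PR regions included 58 in all 4 lists (26.2%, background 19.8%), 18 in both Y541S lists but neither WT list (8.14%, background 6.92%) and none in both WT lists alone (background 0.558%). Regions of the Y541S class were about as common near the axis as elsewhere. The regions in all 4 lists were unevenly spread: Stat5b had 12 regions of each receptor, Prlr 2 for ERα and 11 for PR, and Socs2 4 for ERα and 14 for PR.

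**Figure D2:**
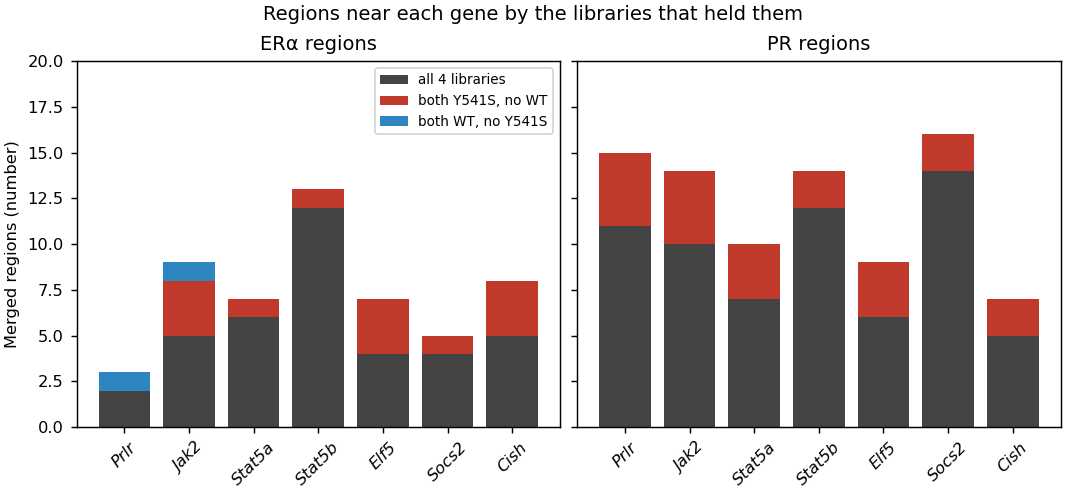
Number of merged regions (y axis) near each gene (x axis) for ERα (left) and PR (right). Dark bars are regions in all 4 lists, red those in both Y541S and no WT list, blue those in both WT and no Y541S list. Prlr has 2 ERα regions in all 4 lists and 11 PR regions, and only Prlr and Jak2 have a blue bar, for ERα.

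Merged over both receptors, 107 of the 323 regions held a peak of each receptor (33.1%, background 24.8%), 103 held ERα peaks alone (31.9%, background 41.3%) and 113 PR peaks alone (35.0%, background 33.9%). In 22 regions all 8 lists had a peak (6.81%, background 3.76%). A peak in all 4 PR lists with no ERα peak was found in 7 regions (2.17%, background 2.55%), and the reverse in 1 (0.310%, background 0.505%), inside Elf5.

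Strength was compared by place: the peaks of a list were ordered by the deposited −log10 p, place 1 being the strongest. Of the 32 ERα regions in all 4 lists, 7 had better places in both Y541S lists (background 18.4%) and 5 in both WT lists (background 14.4%). The Stat5b window held 12 of the 32, of which 4 had better places in Y541S and none in WT. Of the 58 PR regions in all 4 lists, 5 had better places in both Y541S lists (background 17%) and 13 in both WT lists (background 18.6%), and 6 of those 13 were at Prlr. The Y541S lists are longer, and dividing each place by the length of its list turned the balance for PR. By that measure, chosen after seeing the data, 11 PR regions were ahead in Y541S and 6 in WT (26.5% and 10.4% of all such regions), 4 of the 6 at Prlr, and 10 and 2 ERα regions (37.2% and 5.10%). No genotype difference in strength is therefore read from these counts. Of the 22 regions in all 8 lists, 3 had better places in every PR list (background 10.3%) and 4 in every ERα list (background 27.1%), and the counts were again 3 and 4 by percent of the list.

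**Figure D3:**
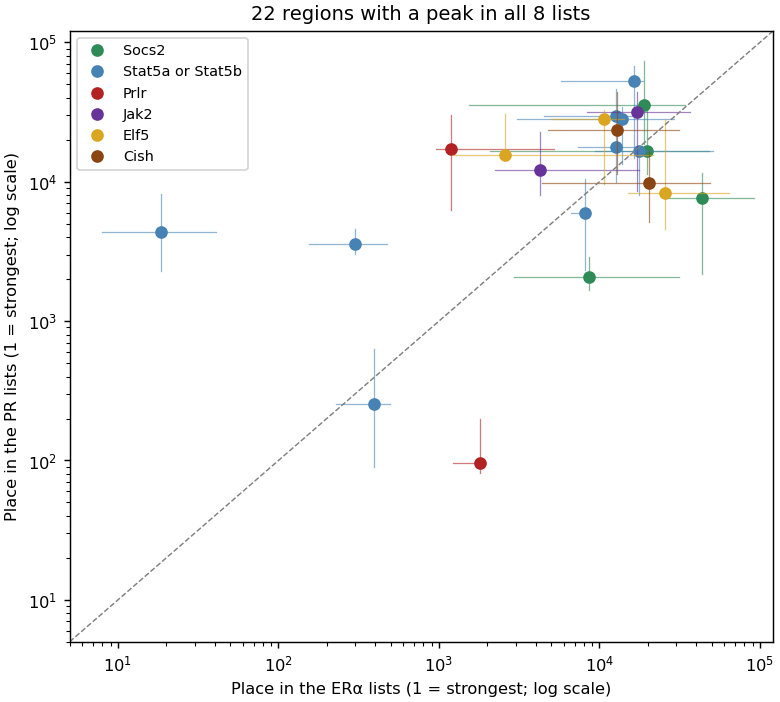
Place of the 22 regions with a peak in all 8 lists in the ERα lists (x axis) and the PR lists (y axis), both on log scales with 1 the strongest. Points are medians over 4 lists, lines run from the best to the worst place, and the dashed line marks equal places. The leftmost point is the Stat5a region at median place 18.5 for ERα, and the lowest is the Prlr region at median place 96.0 for PR.

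Prlr held its strongest PR site 24.0 kb inside the gene from its 5′ end (chr15:10200913-10201627). PR placed it 81, 200, 105 and 87 in the 4 lists, with deposited fold enrichments of 17.7, 17.6, 18.5 and 19.5, and ERα placed it 1852, 1754, 1225 and 1848. Every PR list ranked it among its first 200 peaks. The genotypes overlapped in place for both receptors, but as a percent of the list both Y541S libraries were ahead, at 0.0976, 0.214, 0.0924 and 0.0858 for PR and 2.55, 2.72, 1.15 and 1.75 for ERα. Another site, 29.3 kb inside the gene (chr15:10206190-10206845), was the strongest ERα site of Prlr in 3 of 4 ERα lists and had the opposite order, with ERα places of 1192, 956, 1181 and 5219 and PR places of 6216, 11092, 23267 and 30221. These neighbors were the only ERα regions near Prlr found in all 4 lists, and at each of them the ERα places and the PR places did not overlap. At the latter site PR places were also better in both WT lists than in both Y541S lists.

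A further PR site 41.5 kb inside Prlr (chr15:10218299-10218932) had PR places of 2904, 1984, 5001 and 4214. Its ERα peak was present in both WT lists, at places 47202 and 15672, and in no Y541S list, so it was 1 of the 2 WT-class ERα regions of the axis. It is named after its values were seen. The other, near Jak2 and 43.6 kb from it, was weak in WT, at 74.0% and 54.7% of the list from the top, and also had PR peaks in all 4 lists. Deeper in the gene, a site 102 kb inside Prlr (chr15:10279049-10279718) had PR peaks at 11.6%, 7.21%, 16.2% and 14.4% of the list and no ERα peak. Of the peaks linked to Prlr in the 8 lists, 97.4% were closer to it than to any other coding gene.

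**Figure D4:**
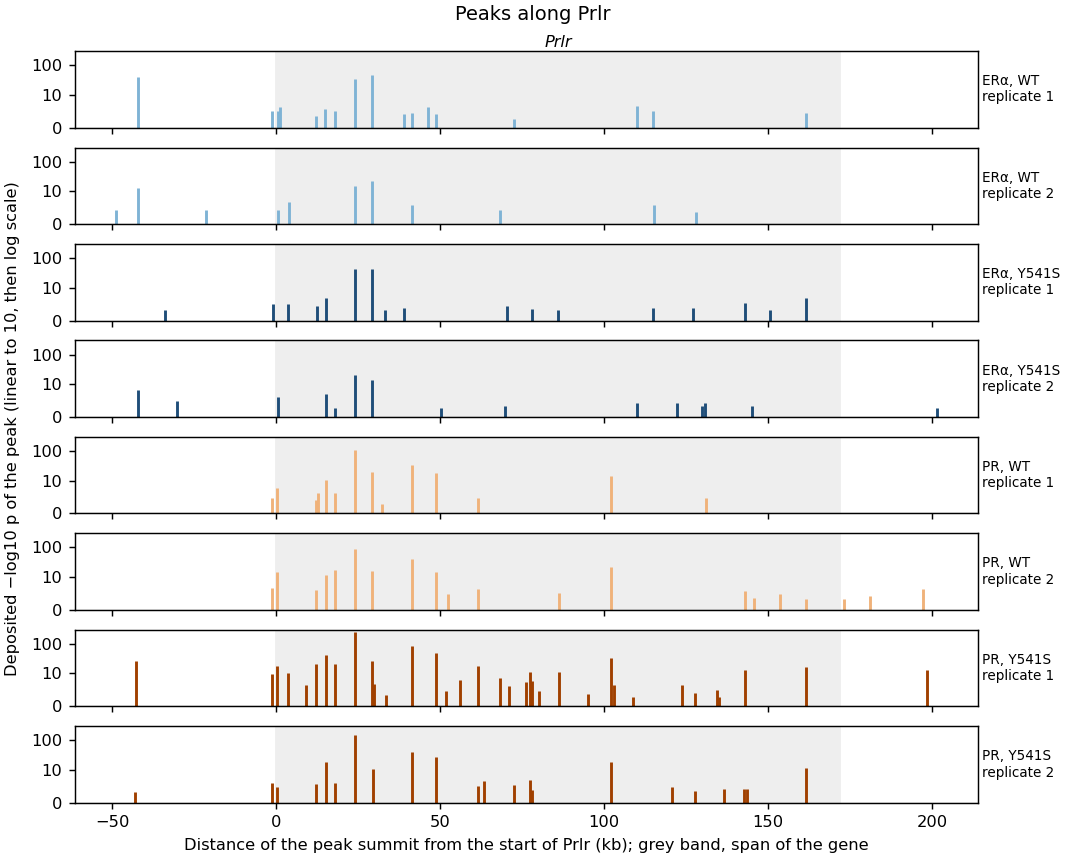
Peaks of the 8 lists along Prlr, with distance of the summit from the gene's start in kb (x axis) and the deposited −log10 p (y axis, linear to 10 and logarithmic above). Each panel is a library and the grey band the gene. The tall line at 24.0 kb is in all 8 panels, and PR lines at 41.5 and 102 kb lack an ERα line in the Y541S panels.

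Jak2, the kinase, had no peak meeting its RefSeq promoter window of 300 bases in any list. An ERα region in all 4 lists lay just outside it, 0.455 kb before the gene (chr19:29250914-29251467), at 54.8%, 55.5%, 11.4% and 14.8%. PR peaks were found in that region in all but WT replicate 1, at 29.0%, 85.9% and 62.4%. The best ERα region of Jak2 lay 12.9 kb before the gene (chr19:29238197-29239155), at places 813, 1276, 1452 and 2087. PR peaks there were weak, at 89.9%, 34.5% and 63.1% of 3 lists and absent from Y541S replicate 2. The best PR region lay 40.2 kb before the gene (chr19:29211391-29211833), at places 1686, 5116, 6293 and 5579, and had no ERα peak in any list. The strongest sites of the receptors were thus different regions. A PR region of the Y541S class with a place in the first 25% of both of its lists lay 4.22 kb past Jak2 (chr19:29317011-29317818), at 22.3% and 23.4%, but closer to Insl6.

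Stat5a and Stat5b lie next to each other and share most of their window. Inside Stat5a, 11.4 kb from its 5′ end, was an ERα region (chr11:100870280-100871432) at places 23, 41, 14 and 8, the strongest ERα site of the axis in every ERα list. Its deposited folds were 14.6, 17.8, 19.3 and 21.2, with both Y541S libraries ahead of both WT libraries in place. PR peaks there were at places 4127, 2272, 4588 and 8162, behind every ERα list. The Stat5a and Stat5b promoters shown above had weaker ERα peaks, at 50.6%, 10.98%, 60.9% and 13.9% of the list for Stat5a and at 34.5%, 52.8%, 38.1% and 24.6% for Stat5b.

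The best PR region of both genes lay 4.54 kb inside Stat5b from its 5′ end (chr11:100854217-100854767), at PR places 381, 90, 631 and 131 and ERα places 495, 463, 323 and 227. At this site the receptors overlapped in place, and the ERα places were better in both Y541S lists. The 5′ end is that of the gene's span. Both listed Stat5b promoters (chr11:100850532-100850831 and chr11:100822521-100822820, minus strand) lie further inside, so the site is upstream of both listed starts. The first of these promoters met no peak in any list, and the second is the one shown above. A further ERα site inside Stat5b (chr11:100799232-100799980) had ERα places of 312, 284, 156 and 477 and PR places of 4012, 3126, 3026 and 4567. All 3 of these sites were within the first 1% of every ERα list, the only ERα peaks of the axis that were.

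One ERα region of the Y541S class at this locus had good places, inside Stat5b and 3.25 kb from its 5′ end (chr11:100855561-100856149), at 4.78% and 8.77% of the Y541S lists. It lay beside the best PR region above, likewise upstream of both listed Stat5b starts. PR peaks were present in all 4 lists, at 19.3%, 93.5%, 23.5% and 24.5%. Only 24.8% of the peaks linked to Stat5a and 50.8% of those linked to Stat5b were closest to that gene, and Stat3, Ghdc, Hcrt, Rab5c and Kcnh4 share the windows.

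**Figure D5:**
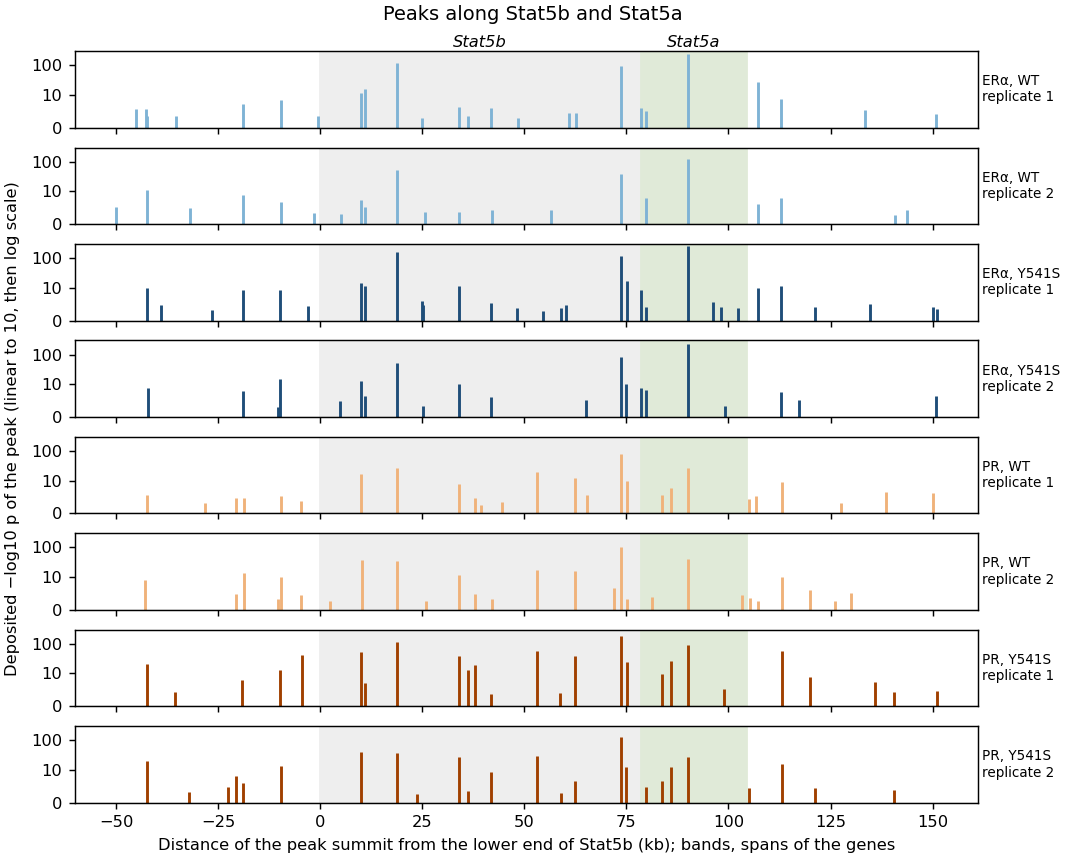
Peaks of the 8 lists along Stat5b and Stat5a, with distance of the summit from the lower end of Stat5b in kb (x axis) and the deposited −log10 p (y axis, linear to 10 and logarithmic above). Bands mark the genes, Stat5b left and Stat5a right. The line within Stat5a is the tallest in all 4 ERα panels, while the PR panels have their tallest line inside Stat5b near its border with Stat5a.

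Elf5, the alveolar ETS factor, had no peak in any list at the first of its 2 RefSeq promoters. The other (chr2:103423818-103424117) met a PR peak in both Y541S lists, at 67.6% and 51.6%, and in no WT list. An ERα peak met it only in WT replicate 2, at 38.8%. The best ERα region of Elf5 lay 49.1 kb before the gene (chr2:103362795-103363233), just inside the limit of 50 kb, at 3.43%, 4.17%, 1.13% and 20.4% of the list. The best PR region was 32.1 kb before the gene (chr2:103379773-103380378), at 7.21%, 6.67%, 4.82% and 19.4%, with an ERα peak in 1 of 4 lists. No ERα region in the first 1% of a list was linked to Elf5, and none for PR. Just before the gene was a PR region, at 1.76 kb (chr2:103410135-103410567), at 25.5%, 10.6%, 13.3% and 19.6%, with no ERα peak.

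A pair of regions 23.0 and 21.6 kb before Elf5 (chr2:103388794-103389334 and chr2:103390309-103391069) had a peak in both Y541S lists of each receptor and in no WT list. Their ERα places were 47.9% and 19.1% of the list for the first and 48.9% and 11.1% for the second, and their PR places were 63.8% and 91.8%, then 90.6% and 75.1%. These are weak peaks. One more such region lay inside Rln1, 21.4 kb from Jak2. The 3 made up 0.929% of the 323 regions, beside 0.232% of all regions, and this class was defined after the values were seen.

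Socs2, a feedback inhibitor, had more PR than ERα peaks among the stronger peaks. In the first 25% of the lists it had 3, 2, 7 and 4 ERα peaks and 12, 10, 10 and 12 PR peaks, so no PR value reached down to an ERα value. The share of all coding genes with such a gap was not computed, so no difference particular to Socs2 is read from it. Of its 28 PR regions, 14 were in all 4 lists, against 4 of 32 ERα regions. The best PR region lay 41.2 kb from the gene (chr10:95458087-95458861), at places 1608, 618, 1725 and 411, and is closer to Mrpl42. The best ERα region lay 22.4 kb from the other end (chr10:95361096-95361779), at 4.04%, 7.70%, 11.4% and 29.7% of the list, with both WT libraries ahead of both Y541S libraries. PR placed that region better in every list, at 2.72%, 1.79%, 2.55% and 1.83%.

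Cish, the other feedback gene, was the only one of the 6 genes with promoter sequences whose window met a peak in all 8 lists. Its start region (chr9:107296194-107297484) was in all 8 lists, at 43.1%, 7.43%, 19.4% and 4.75% for ERα and 52.6%, 21.0%, 23.9% and 11.1% for PR. The sequence shown above, with its STAT5 motifs, lies in this region. In WT replicate 1, the ERα peak that met the promoter window itself was weaker than the best of the region, at 82.6% of the list. Replicate 2 was ahead of replicate 1 in each of the 4 groups, and the genotypes overlapped for both receptors. The best PR region lay 6.68 kb before the gene (chr9:107288770-107290236), at 12.6%, 5.54%, 14.5% and 9.01%. ERα placed that region at 43.7% and 75.5% in WT and 8.21% and 4.15% in Y541S, so both Y541S lists were ahead. An ERα region of the Y541S class 5.51 kb before Cish (chr9:107290966-107291306) stood at 23.9% and 11.7%. Both are closer to Mapkapk3, and 30.0% of the peaks linked to Cish were closest to it.

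In a list of 29 other prolactin and JAK-STAT genes, 11 had more ERα peaks in both Y541S libraries and none fewer, and 7 had more PR peaks and 1 fewer, beside 40.8% and 24.5% higher and 0.951% and 3.15% lower over all genes. Per 10000 peaks the balance turned, as it did over all genes. For ERα 2 were higher and 15 lower (background 13.9% and 26%), and for PR 6 higher and 13 lower (background 12.8% and 19.7%). The list had a median of 13.5 ERα and 14.25 PR peaks per gene. Most regions in all 4 lists were at Socs3, another feedback inhibitor (9 for ERα and 14 for PR), at Stat3 for ERα (9) and at the phosphatase gene Ptpn1 for PR (13). Stat3 shares the windows of Stat5a and Stat5b, so its regions include some already counted near those genes. Most Y541S-class regions were at the adaptor gene Gab2 for ERα (6) and Socs7 (5), and at Ptpn1 and the adaptor gene Shc1 for PR (5 each). Gab2 had 20, 20, 31 and 33 ERα peaks. Between receptors, 4 of the 29 had more PR than ERα peaks in every library and 1, Gab2, had fewer, beside 4.29% and 0.809% of all genes. Per 10000 peaks 0 were higher and 1 lower (background 4.94% and 4.17%). Prl, the hormone's own gene, had 1 peak in 1 of the 8 lists.

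For each member, the coding gene with the most similar peak numbers over the 8 libraries was found by the sum of absolute differences divided by the sum of both genes' peaks, where 0 is identity. These were Ltbp2 for Prlr (0.0418), Gatad2a for Jak2 (0.0275), 1700012B07Rik for Stat5a (0.0281), Ppp1r12b for Stat5b (0.0262), Cdca4 for Elf5 (0.0294), Ankrd39 for Socs2 (0.0211) and BC049352 for Cish (0.0288). Ltbp2 shared the PR pattern of Prlr, with 13, 22, 34 and 24 PR peaks. These likenesses describe 8 libraries and carry no test.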

How the data were processed

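Peak lists of 8 ERα and PR ChIP-seq libraries from whole mammary glands were used. Per the labels' protocols, chromatin was sheared to 300 to 500 bp and 30 µg was precipitated with 4 µg of antibody. Positions are on mm10, per the submitters' processing notes. Which aligner and which peak caller were run, and whether input served as control, is not given in the sources used here. The authors deposited 1 list per library, with a score per peak, a fold enrichment (ratio) at the summit, a −log10 p, a −log10 q and the summit's offset. These are the authors' own values, without scaling between libraries, and were used only to rank, filter or describe peaks within a list.

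Peaks were linked to gene spans from a RefSeq table (GRCm38.p6) with a limit of 50 kb, merged across lists at an overlap of at least 1 bp, and ranked by −log10 p, ties averaged (Python 3.11.15, pandas 2.3.3, numpy 2.4.6). Region classes and per-gene peak counts were recovered on simulated lists. The exact permutation tests were run only on small fixed sets of values, not on simulated lists. Adjusted p-values are Benjamini-Hochberg over 21883 coding genes. All p-values cover only the spread between these libraries. Per member and receptor, the named regions were the one in all 4 lists with the lowest mean rank percent, and each region of one genotype in the first 25% of both of its lists; from the list of 29 pathway genes, the 2 with most regions in all 4 lists and the 2 with most Y541S regions were named. Signal under the calling threshold may exist where a list has no peak. The members and gene lists were chosen with earlier results of these data known. Alternatives were peaks per 10000, −log10 p of at least 5, lists of 20000 peaks, a limit of 10 kb, summits within 150 bp, leaving out each library, a replicate block and, added after seeing the data, places as a percent of the list. Region sequences and the D542G samples were not analysed here.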

Additional observations from a re-analysis of the deposited data

Results flagged for a closer look

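Stat5b was the member at which the genotype difference went opposite ways for the 2 receptors in both replicates. Its ERα peaks numbered 23 and 19 in WT and 28 and 20 in Y541S, a mean difference of 3, whereas its PR peaks numbered 24 and 26 in WT and 23 and 24 in Y541S, a mean difference of -1.5. The genotypes overlapped for each receptor. The directions were not opposite under 4 other settings. With −log10 p of at least 5 the differences were 2 for ERα and 4 for PR. Per 10000 peaks they were -0.80 and -0.64, with lists of 20000 peaks 3 and 0, and with a limit of 10 kb 1.5 and 0.5. In the full lists with the limit of 50 kb, the difference between the effects, PR minus ERα, was -4.5 peaks. A two-sided exact permutation test of genotype within receptor gave p = 0.444. With 2 libraries a group this test cannot give a p below 0.0556, so no conclusion on the opposite directions is drawn from it.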

How the results depend on the processing

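Dividing by list length turned the Y541S to WT log2 ratio near the 7 genes to -0.24 for ERα and -0.0064 for PR, lowered PR to ERα to 0.11, left 0 genes higher for ERα and 1 for PR, and gave differences of -0.0975 for Socs2 PR and -0.140 for Cish ERα. With −log10 p of at least 5, the log2 ratios were 0.58 for PR and 0.75 for PR to ERα, 1 gene had more PR than ERα peaks, ERα classes held 6 Y541S, 1 WT and 18 shared regions, PR 1 WT region, and 12 regions were in all PR and no ERα lists, 0 the reverse. With lists of 20000 peaks, the log2 ratio was 0.25 for ERα and -0.021 for PR, the PR difference -2 for Prlr and -0.5 for Socs2, 1 gene was higher for PR and 1 between receptors, ERα classes held 7, 0 and 12 regions, PR classes 1, 1 and 22, and 2 regions were in ERα lists only. With a limit of 10 kb, the ERα log2 ratio was 0.29, ERα classes held 4, 1 and 20 regions, and PR 10 Y541S and 34 shared regions. With summits within 150 bp, 21 ERα regions were shared and 0 were in ERα lists only. Leaving out 1 library gave 0.29 to 0.50 for the ERα log2 ratio, 3 to 6 genes higher for ERα and 0 to 2 between receptors, 16 to 56 Y541S and 5 to 36 WT regions for ERα, 25 to 50 and 2 to 27 for PR, 7 to 11 regions in PR lists only and 1 to 5 in ERα lists only, where dropping a library loosens each class by construction. With a replicate block the log2 ratios stayed 0.39, 0.28 and 0.30, but PR exceeded ERα in each same-numbered pair, whereas the 4 PR and 4 ERα totals overlapped without it. By percent of the list, chosen after seeing the data, regions ahead in Y541S numbered 10 for ERα and 11 for PR, and 2 for ERα and 6 for PR were ahead in WT. Depth was unknown, the other causes were not tested, and 2 libraries a group limit every call.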

Other observations

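Among 7 milk protein genes, the classical outputs of STAT5 and Elf5, peak numbers in WT libraries ran from 0 at Csn2 to 9 PR peaks at Lalba, encoding α-lactalbumin. Csn2, encoding β-casein, had 0, 0, 0 and 6 ERα peaks and 0, 0, 3 and 3 PR peaks within 50 kb, and Csn3, encoding κ-casein, had 0, 0, 1 and 6 ERα peaks and 1, 2, 3 and 5 PR peaks, in the order used above. Lalba had 8, 4, 8 and 8 ERα peaks and 6, 9, 8 and 4 PR peaks. These genes were chosen after their values were seen. In the whole list of 15 STAT5 and Elf5 target genes, 6 had more ERα peaks in both Y541S libraries and 6 more PR peaks, with none fewer. Over all coding genes 40.8% and 24.5% were higher, and 0.951% and 3.15% lower. Per 10000 peaks 2 of the 15 were higher and 3 lower for ERα (background 13.9% and 26%). For PR 5 were higher and 2 lower (background 12.8% and 19.7%). By number of peaks, the 6 genes higher for PR were Csn1s1, Csn1s2a, Csn2, Csn3, Akt1 and Pim1. The caseins among them belong to the same gene cluster and had few peaks, so these calls are not independent. In the list 1 gene had more PR than ERα peaks in every library (4.29% of all genes), Tnfsf11, encoding the paracrine signal RANKL. Tnfsf11 had 5, 5, 9 and 6 ERα peaks and 16, 10, 14 and 19 PR peaks.

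Near marker genes of the cell types of a whole gland, more ERα peaks in both Y541S libraries were found at 2 of 5 luminal, 4 of 5 basal, 1 of 5 adipocyte, 2 of 3 endothelial and 2 of 4 immune genes, and fewer at none. Over all genes 40.8% were higher and 0.951% lower. Per 10000 peaks the numbers higher were 1, 2, 0, 1 and 0, and 3 adipocyte genes were lower (background 13.9% higher and 26% lower). For PR the numbers higher were 3 of 5, 3 of 5, 1 of 5, 0 of 3 and 0 of 4, and 1 basal, 1 adipocyte and 1 endothelial gene had fewer. Over all genes 24.5% were higher and 3.15% lower. Per 10000 peaks the numbers higher for PR were 0, 3, 0, 0 and 0, and 1 basal, 3 adipocyte and 2 endothelial genes were lower. The background was 12.8% higher and 19.7% lower. Their part in the values of the 7 genes was not tested.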
